A study of Mus musculus with 8 samples.

Results

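The 8 libraries of this series, 1 from the intestine of each of 8 mice, were set against each other as 4 and 4 in a way that cuts across the labelled groups. The first set held Klebsiella recipients 1, 2 and 4 and Lactobacillus recipient 1, and the second set held Klebsiella recipient 3 and Lactobacillus recipients 2, 3 and 4. All 8 libraries of the series are therefore members, 4 in each set. The mice were C57BL/6, 4 of them Klebsiella recipients and 4 Lactobacillus recipients by their labels, after 2 genera of gut bacteria. No recipient of neither is among the groups compared here. The sources used here do not give age, dose, time after transfer, the animals' own microbiota or the part of the intestine taken. The tissue was frozen in liquid nitrogen and its total RNA was taken with Trizol.

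The sets were chosen by the measured values themselves: in earlier results of the same data, the mean levels of immediate-early, chemokine and cholesterol genes were higher in the first 4 libraries than in the others. Every difference between the sets below is therefore a description of these 8 libraries and carries no test. Values are FPKM, reads per gene scaled by gene length and library size, and differences are differences of the mean log2(FPKM + 0.5) of the 4 libraries of each set, the first minus the second. A gene is called separated where all 4 libraries of a set lie above all 4 of the other. Its gap is the distance on the log2 scale between the nearest libraries of the 2 sets. Values per library are given in 1 order throughout, which is Klebsiella 1, 2 and 4 and Lactobacillus 1 for the first set, then Klebsiella 3 and Lactobacillus 2, 3 and 4 for the second.

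Growth factors of the epidermal growth factor (EGF) family bind receptors of the EGF receptor family and switch on the kinase ERK, which acts through the serum response factor and AP-1 to turn on immediate-early genes within minutes. The same pathway induces its own brakes, among them phosphatases of the DUSP family, Sprouty proteins and the receptor inhibitor encoded by Errfi1. In the gut epithelium these genes are known to respond to wounding and to bacteria. Cholesterol synthesis, by contrast, is set by the transcription factor SREBP2, which is active when sterols in the endoplasmic reticulum are low.

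Reads left by the authors' filter numbered 40455910 to 55447220 per library, and 15753959 to 21548070 reads in genes per library could be recovered from the FPKM values. Correlations of log2 values across genes lay between 0.949 and 0.976 for every pair of libraries. The intestinal epithelial gene Vil1 was at 382 to 534 FPKM, as intestinal epithelium has it, while of 12 small-intestinal genes 7 passed the filter on low values and Sis, Lct, Fabp1, Apoa1 and Apoa4 did not. Among those that passed, Fabp2, a fatty acid carrier, was at 28.9 to 322.2 FPKM, Rbp2 at 8.63 to 75.1, Apob at 7.18 to 27.2 and Fabp6 at 3.04 to 11.98. Of the 7, 0 were separated, and their median difference of -0.45 was 0.08 without Klebsiella 3 and Lactobacillus 2 and -0.78 without Klebsiella 2 and Lactobacillus 3. Libraries also stood apart within each set. Klebsiella 3 and Lactobacillus 2, both of the second set, had Hoxb6, a homeobox gene of position along the gut, at 40.2 and 45.2 FPKM against at most 3.87 in the rest. Klebsiella 2 of the first set and Lactobacillus 3 of the second had the pancreatic transcript Ctrb1 at 418 and 112.5 FPKM against at most 2.99. Some lists whose counts moved without one of these pairs are given both ways.

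Of 16865 genes with a mean of at least 0.5 FPKM, 1135 were separated with the first set higher, which is 6.73% of the genes, and 1372 with the second set higher, which is 8.14%. These shares are the background for counts of list members over all 8 libraries. Fewer libraries separate more genes: without Klebsiella 3 and Lactobacillus 2 the shares were 13.4% with the first set higher and 16% with the second set higher, and without Klebsiella 2 and Lactobacillus 3 they were 12.2% and 17.8%. The genes high in the first set held the widest gaps. A gap above 1 on the log2 scale was found for 40 genes higher in the first set and 5 higher in the second. Over all genes the median difference was -0.04, and 43.3% of genes were higher on average in the first set. Rescaling the libraries turned the balance of the counts, to 1276 higher in the first set and 1101 in the second with a constant total, and to 1247 and 1134 with median-of-ratios factors.

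**Figure D1:**
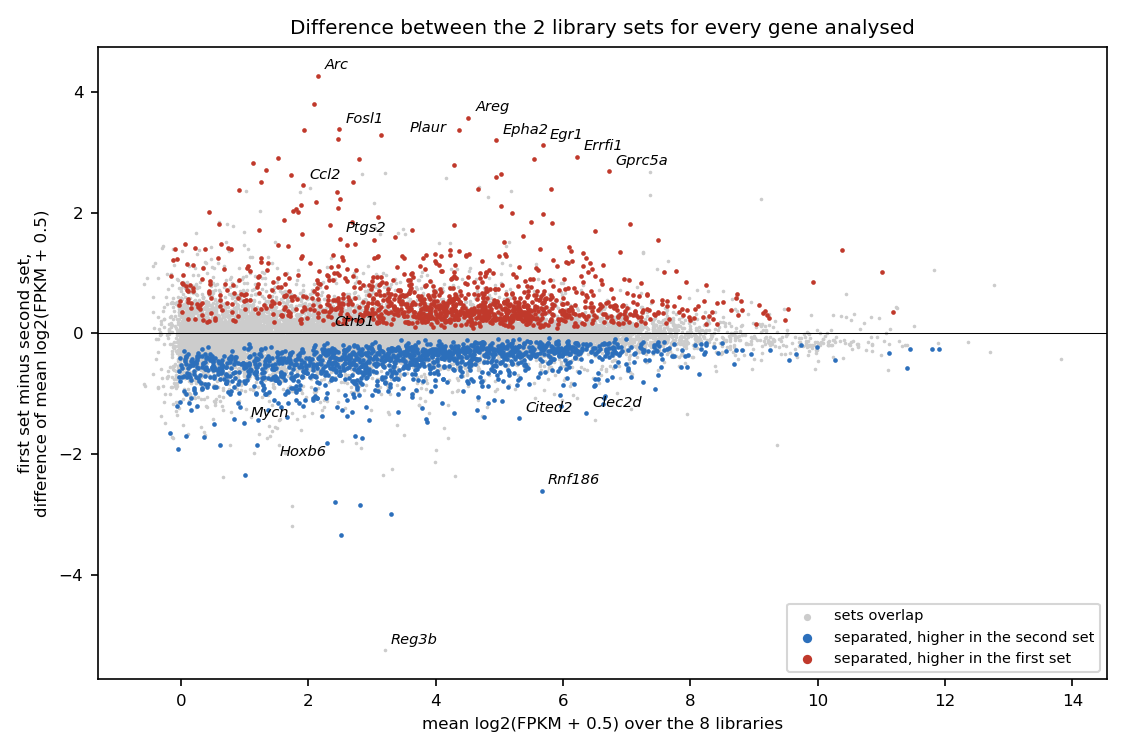
Each point is 1 of 16865 genes, placed by its mean log2(FPKM + 0.5) over the 8 libraries (horizontal axis) and by the difference of the set means, first minus second (vertical axis); red and blue points are genes for which the sets do not overlap. The highest red points include Arc at 4.27 and Areg at 3.57, blue points reach down to the immunoglobulin gene Igkv12-89 at -3.34, past Rnf186 at -2.60, and Reg3b, for which the sets overlap, lies below all others at -5.25.

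The widest gap of all belonged to a growth factor. Areg encodes amphiregulin, an EGF receptor ligand of wounded epithelium. Areg was at 80.2, 114, 65.8 and 60.1 FPKM in the first set and 5.199, 8.28, 5.72 and 5.44 FPKM in the second. The lowest library of the first set lay far above the highest of the second, with a gap of 2.79 and a difference of 3.57. Hbegf, the heparin-binding ligand of the same receptor, had the same order of sets. Hbegf was at 60.7, 117, 29.7 and 31.6 FPKM in the first set and 5.48, 9.59, 8.31 and 5.22 FPKM in the second. Klebsiella 2 was the highest library for both ligands. Ereg, which encodes the ligand epiregulin, was at 17.5, 16.4, 18.7 and 9.47 FPKM in the first set and 1.902, 3.48, 2.31 and 1.602 FPKM in the second. Its gap was 1.33. The other ligands did not separate the sets: Tgfa was at 11.9 to 14.8 FPKM in the first set and 11.5 to 16.9 in the second, and Btc, Egf, Nrg1 and Nrg4 overlapped as well. Of 9 EGF family ligands, a list added after values were seen, 8 passed the filter on low values, 3 were separated with the first set higher and 0 with the second set higher, and the median difference was 0.32.

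The receptors were ordered the other way. Erbb2 was at 48.6, 50.5, 38.03 and 49.9 FPKM in the first set and 65.7, 59.95, 64.2 and 70.1 FPKM in the second. This receptor, which pairs with other members of the family, had a difference of -0.48. Erbb3 was at 39.2, 52.4, 33.6 and 43.8 FPKM in the first set and 69.5, 59.6, 58.1 and 75.3 FPKM in the second. Its difference was -0.64 and its gap 0.15. Egfr itself overlapped, at 12.5 to 17.1 FPKM in the first set and 13.1 to 18.5 in the second. Erbb4 was below the filter. Of the 4 receptors, also a list added after values were seen, 3 passed the filter, 2 were separated with the second set higher, and the median difference was -0.48.

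Inhibitors that ERK signalling induces were higher in the first set. Errfi1, which encodes the inhibitor of the EGF receptor, was at 314, 330.4, 148 and 116 FPKM in the first set and 28.1, 33.1, 20.6 and 25.9 FPKM in the second. Klebsiella 1 and 2 were the highest, and the gap was 1.80. Spry4, which encodes a Sprouty protein, was at 11.3, 12.3, 11.95 and 8.14 FPKM in the first set and 2.13, 2.17, 2.26 and 2.14 FPKM in the second. The 4 libraries of the second set lay close together, and the gap was 1.65. Dusp6, which encodes a phosphatase that acts on ERK, was at 92.8, 72.8, 62.9 and 62.9 FPKM in the first set and 20.9, 26.5, 23.5 and 22.5 FPKM in the second. Its gap was 1.23. Phlda1, another target of the pathway, was at 52.0 to 112.8 FPKM against 10.4 to 14.7. Of 14 such regulators (a list added after values were seen), 9 were separated with the first set higher and 0 the other way, with a median difference of 1.20. Spry1, Spred1, Spred2, Spred3 and Etv5 were the 5 for which the sets overlapped. Reads of Errfi1 cannot be told from those of 1700045H11Rik, nor reads of Phlda1 from those of Gm28592, where these genes overlap them.

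**Figure D2:**
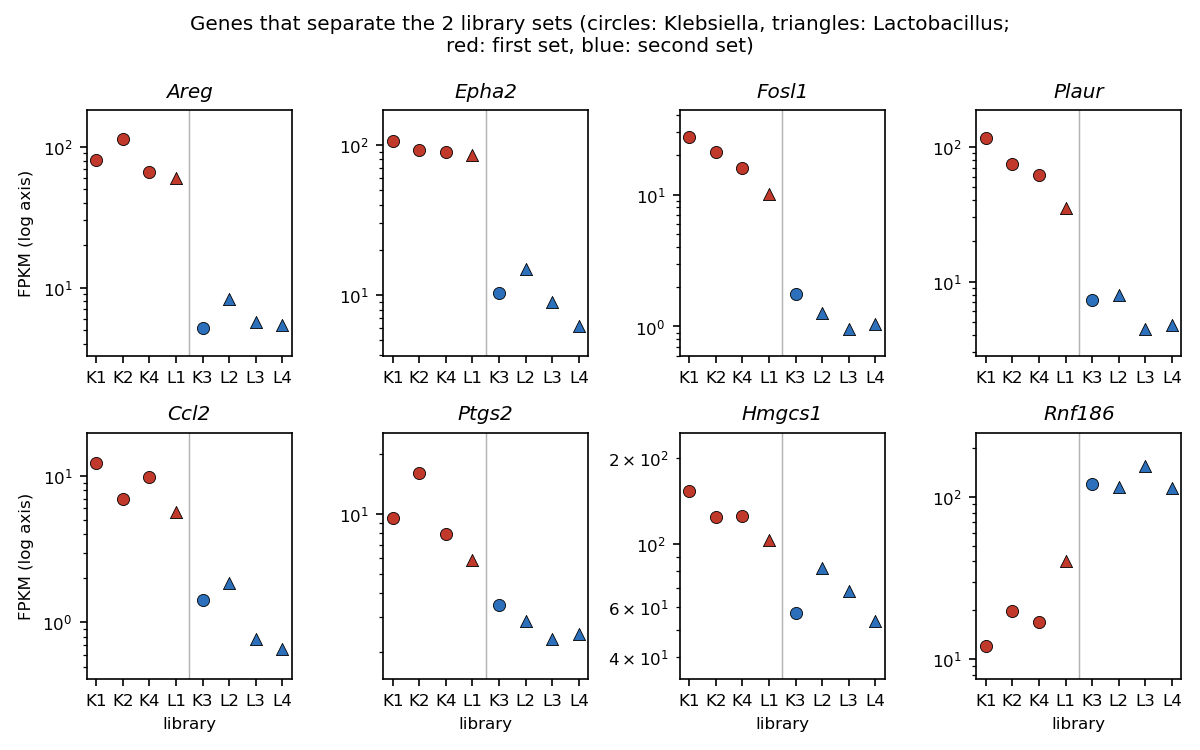
FPKM (log axis) of 8 genes in each of the 8 libraries, with the first set (red) left of the grey line, the second set (blue) right of it, circles for Klebsiella and triangles for Lactobacillus recipients. In each panel the sets do not overlap, and Lactobacillus 1 is the red library nearest to the blue ones in all 8 panels (the lowest red point, or the highest for Rnf186), while Klebsiella 3 lies among the blue ones.

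Promoters are shown for genes of 2 groups, the widest gaps (Areg, Epha2, Plaur, Sprr1a) and cholesterol synthesis (Hmgcs1), to set letters known as binding sites beside genes that moved together here. Each is the 250 bases before the start of the RefSeq gene model on GRCm38.p6, 5′ to 3′ on the gene's strand, with motif letters in capitals. Areg lies on the plus strand at chr5:91139349-91139598 and holds the cyclic AMP response element TGACGTCA from 61 bases before the start and a TATAAA box from 31. Epha2, on the plus strand at chr4:141300971-141301220, holds TGACGTCA from 33 bases before. Plaur, on the plus strand at chr7:24462233-24462482, holds the AP-1 site TGACTCA from 69 bases before. Sprr1a, on the minus strand at chr3:92485882-92486131, holds TGAGTCA from 146 and from 116 bases before, and TATAAA from 43. Hmgcs1, on the plus strand at chr13:119690101-119690350, holds the sterol element TCACCCCAC from 137. Each promoter shown holds at least 1 of the motifs sought, and that of Hmgcs1 is the 1 of 20 cholesterol promoters with the sterol element. They are examples and do not stand for their groups.
Areg: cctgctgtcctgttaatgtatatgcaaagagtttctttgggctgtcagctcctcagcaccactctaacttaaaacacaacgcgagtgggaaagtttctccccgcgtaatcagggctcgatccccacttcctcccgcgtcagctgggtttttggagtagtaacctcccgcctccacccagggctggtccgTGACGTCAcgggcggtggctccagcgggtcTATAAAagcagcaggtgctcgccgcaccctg
Epha2: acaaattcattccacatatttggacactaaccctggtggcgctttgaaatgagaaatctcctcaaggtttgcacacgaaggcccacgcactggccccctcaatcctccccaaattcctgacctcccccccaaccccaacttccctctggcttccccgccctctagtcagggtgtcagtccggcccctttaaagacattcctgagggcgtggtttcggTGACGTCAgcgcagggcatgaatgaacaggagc
Plaur: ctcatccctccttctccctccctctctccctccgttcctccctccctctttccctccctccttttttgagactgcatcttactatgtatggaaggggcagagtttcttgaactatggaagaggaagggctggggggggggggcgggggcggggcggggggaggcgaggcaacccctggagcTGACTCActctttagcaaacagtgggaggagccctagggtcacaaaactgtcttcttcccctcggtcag
Sprr1a: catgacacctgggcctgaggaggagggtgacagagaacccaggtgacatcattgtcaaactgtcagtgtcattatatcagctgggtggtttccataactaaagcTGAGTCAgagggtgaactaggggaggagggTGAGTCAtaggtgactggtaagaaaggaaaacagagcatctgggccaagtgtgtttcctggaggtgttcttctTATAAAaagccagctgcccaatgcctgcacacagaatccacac
Hmgcs1: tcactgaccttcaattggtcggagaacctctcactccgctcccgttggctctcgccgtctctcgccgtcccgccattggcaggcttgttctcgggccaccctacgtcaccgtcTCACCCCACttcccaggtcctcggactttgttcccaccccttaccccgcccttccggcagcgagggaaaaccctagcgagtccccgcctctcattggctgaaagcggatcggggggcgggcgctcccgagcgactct

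Motifs were counted in windows of 300 bases, from 250 before to 50 after each start, on both strands apart from TATAAA, which was sought on the gene's strand. Of the 15 genes with the widest gaps in the first set, 9 had an entry, with 10 promoters. These promoters belong to genes chosen by their values, and the counts are small. TGACGTCA was in 3 of these (30%) against 2.83% of the 14652 promoters of all genes analysed, TGAGTCA in 2 (20%) against 4.07%, and TATAAA in 3 (30%) against 4.82%. For the immediate-early list, 30 of 39 genes had an entry, with 36 promoters. Of these, 7 (19.4%) held the CArG box of the serum response factor, against 1.37% of all, while 0 of the 10 promoters above held it. The E-box CACGTG was in 8 of the 36 (22.2%), TATAAA in 5 (13.9%) and TGACGTCA in 4 (11.1%). TGAGTCA and the ETS letters CCGGAAGT were in 0 of the 36. Among the 1070 promoters of all genes higher in the first set, the ETS letters CCGGAAGT were in 11.7% against 7.05%, and the E-box CACGTG in 12.5% against 9.36%. In the same 1070 promoters TGAGTCA was in 4.21%, TATAAA in 4.86% and TGACGTCA in 4.11%, so that the first 2 were near their shares of all promoters. In promoters of all genes higher in the second set the ETS letters were in 7.53% and the E-box in 9.75%. TCACNCCAC was in 1 of the 20 promoters of cholesterol genes (5%) against 1.13%. A motif match describes the letters and is not a site shown to be used.

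Other genes with the widest gaps encode receptors and proteins of the cell envelope and matrix. Epha2, which encodes a receptor of ephrins, was at 106, 91.7, 89.1 and 85.7 FPKM in the first set and 10.3, 14.9, 9.01 and 6.24 FPKM in the second. The first set lay within a narrow range, and the gap was 2.49. Plaur, which encodes the urokinase receptor, was at 116, 74.5, 62.0 and 35.4 FPKM in the first set and 7.26, 7.903, 4.46 and 4.79 FPKM in the second. Its gap was 2.09, and Lactobacillus 1 was the lowest of the first set. Gprc5a, which encodes an orphan receptor of epithelia, was at 285, 280.2, 294 and 219 FPKM in the first set and 43.9, 47.1, 41.5 and 32.8 FPKM in the second. Its gap was 2.20. Tnfrsf12a, the receptor of the cytokine TWEAK, was at 71.1 to 186.8 FPKM against 12.3 to 19.7. Sprr1a, a cross-linked protein of the cell envelope, was at 11.0 to 26.7 FPKM against 0.566 to 2.45, and the secreted matrix protein Thbs1 at 95.2 to 147.8 against 14.95 to 31.3. The transcription factor Foxn1 was at 2.74 to 5.46 FPKM against 0.266 to 0.418, on 15 to 277 reads a library. Foxn1 passed the filter on low values only through the first set. N4bp3 was at 45.6 to 91.6 FPKM against 7.45 to 12.6.

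Immediate-early transcription factors were part of what chose the sets, yet the list was not uniform. Arc, which encodes a cytoskeletal protein of activated neurons that is also a target of the serum response factor, was at 43.8, 53.98, 6.15 and 8.67 FPKM in the first set and 0.241, 0.844, 0.909 and 0.261 FPKM in the second. Klebsiella 1 and 2 were several-fold above the other libraries of the first set. Fosl1, which encodes an AP-1 subunit induced later than Fos, was at 27.2, 21.2, 15.9 and 10.1 FPKM in the first set and 1.76, 1.27, 0.949 and 1.04 FPKM in the second. Its gap was 2.22, and Ccdc85b overlaps it, so that part of the reads may belong to either gene. Egr2 was at 16.5, 46.7, 4.09 and 5.71 FPKM in the first set and 0.4702, 1.36, 0.503 and 0.619 FPKM in the second. This zinc finger factor had a gap of 1.31, and the related Egr3 a gap of 1.21. Egr1 was at 169.7, 487, 86.1 and 74.02 FPKM in the first set and 4.39, 21.8, 67.1 and 12.1 FPKM in the second. Here Lactobacillus 3 of the second set came close to Lactobacillus 1 of the first, and the gap was only 0.14. Nr4a3, an orphan nuclear receptor, was at 6.49 to 9.86 FPKM against 0.404 to 1.53, and Nr4a1 at 31.5 to 194.3 against 7.68 to 19.8.

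Other members of the list did not separate the sets. Fos was at 107, 806, 155 and 88.4 FPKM in the first set and 47.9, 126, 220.1 and 104 FPKM in the second. Klebsiella 2 was the highest and Lactobacillus 3, of the second set, the next highest, above 3 libraries of the first. Jun was at 28.8, 65.4, 49.7 and 33.2 FPKM in the first set and 37.6, 45.3, 134 and 34.3 FPKM in the second. Lactobacillus 3 was the highest library and the difference was -0.33. Junb, Fosb, Zfp36, Dusp1 and Atf3 overlapped as well, and Fosb was highest in Lactobacillus 2, at 16.9 FPKM. Of 39 immediate-early genes 38 passed the filter, 17 were separated with the first set higher against 6.73% of all genes, 0 were separated the other way, and the median difference was 0.98. Jun, Gadd45b and Nfkbiz were the 3 with a higher mean in the second set. Egr4 was below the filter. The mean log2 level of the list was 4.69 to 5.76 in the first set and 3.58 to 4.21 in the second, with Lactobacillus 1 and Lactobacillus 3 as the libraries nearest to the divide.

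Genes of chemokines and cytokines were likewise part of the choice, in a list that held monocyte chemokines, other cytokines and Ptgs2. Ccl2 encodes the monocyte chemokine MCP-1, on chromosome 11 (GRCm38, 82035571 to 82037453, plus strand). Ccl2 was at 12.3, 6.92, 9.84 and 5.69 FPKM in the first set and 1.41, 1.85, 0.776 and 0.657 FPKM in the second. Recovered reads were 185, 127, 163 and 87 against 22, 35, 16 and 11, and every library of the first set lay above every library of the second, with a gap of 1.40 and a difference of 2.46. Where Gm17268 overlaps Ccl2, reads of these genes cannot be told apart. Ptgs2 encodes the inducible cyclooxygenase of prostaglandin synthesis, on chromosome 1 (GRCm38, 150100031 to 150108227, plus strand). Ptgs2 was at 9.53, 15.99, 7.88 and 5.87 FPKM in the first set and 3.47, 2.88, 2.35 and 2.49 FPKM in the second. The sets did not overlap, with a smaller gap of 0.68 and a difference of 1.57.

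Il1b, which encodes interleukin 1 beta, was at 5.88, 14.1, 13.6 and 5.41 FPKM in the first set and 1.97, 3.63, 0.917 and 3.18 FPKM in the second. Its gap was 0.52. Ccl7, a chemokine gene beside Ccl2, was at 3.35 to 13.4 FPKM against 0.995 to 1.495, and Lif, a cytokine of the interleukin 6 family, at 2.55 to 5.44 against 1.61 to 1.83. Cxcl1 and Il11 were separated at levels of at most 1.51 and 1.25 FPKM. Tnf, Csf1, Ccl8, Ccl11, Ccl12, Cxcl5 and Cxcl10 overlapped. Of 20 genes in the list 14 passed the filter, 7 were separated with the first set higher, 0 with the second set higher, and the median difference was 1.08. The 7 include Cxcl1 and Il11, which were at most at 0.179 and 0.447 FPKM in the second set. Both passed the filter on low values only through the first set. Ccl3, Ccl4, Cxcl2, Il1a, Il6 and Csf3 were below the filter.

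Markers of the cells these chemokines act on did not order the libraries in the same way. The 12 macrophage genes had a median difference of -0.10 with 0 separated, and their summed level was 335 to 429 FPKM in the first set and 365 to 576 in the second. Adgre1 and Csf1r, which define macrophages, were at 4.50 to 5.88 and 8.62 to 12.7 FPKM in the first set and 3.72 to 6.49 and 8.52 to 13.5 in the second. Neutrophil genes were low, with 4 of 8 past the filter and 0 separated, and their sum was 25.04 FPKM in Klebsiella 4 and at most 6.69 FPKM in the second set. S100a8 was at 8.32 FPKM in Klebsiella 4, at 1.29, 0.846 and 0.762 in the rest of the first set and at 0 to 1.85 in the second. The part of these cells in the chemokine differences was not tested. In bulk tissue, fewer cells of a type and less RNA per cell cannot be told apart.

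Among all named protein-coding genes, the 5 most like Ccl2 over the 8 libraries by Pearson correlation of log2 values were Sprr1a (0.997), the splicing factor Tra2b (0.993), the ribosome biogenesis genes Pwp2 (0.992) and Nolc1 (0.99), and the exonuclease gene Aen (0.988). Those most like Ptgs2 were Actb (0.99), Gem (0.985), Nr4a2 (0.98), Ern2 (0.977) and the histone demethylase gene Kdm6b (0.977). Actb, which encodes cytoplasmic beta-actin, often taken as a constant reference, was at 3289, 3835, 2802 and 2140 FPKM in the first set and 1549, 1506, 1371 and 1379 FPKM in the second. Its difference was 1.03 and its gap 0.47. Each correlation rests on the same 8 libraries and is given with no test, since all these genes share the divide between the sets.

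Cholesterol synthesis was the third group behind the choice. Insig1, which encodes the sterol sensor that holds SREBP2 back, was at 137, 130.4, 113 and 91.7 FPKM in the first set and 43.1, 74.6, 53.8 and 48.1 FPKM in the second. Its gap was 0.30. Sqle, which encodes squalene epoxidase, was at 70.4, 57.8, 63.8 and 59.8 FPKM in the first set and 32.3, 39.8, 41.6 and 23.1 FPKM in the second. Its gap was 0.47. Hmgcs1, which encodes an early enzyme of the pathway, was at 153, 124, 125 and 103 FPKM in the first set and 57.2, 81.9, 68.2 and 53.7 FPKM in the second. Its gap was 0.32, and Lactobacillus 1 was the lowest of the first set. Cyp51, Idi1, Msmo1, Hsd17b7 and Srebf2, the gene of SREBP2 itself, were among the other members separated. Of 25 genes 11 were separated with the first set higher and 0 the other way, with a median difference of 0.57. The late enzymes Ebp and Dhcr7 and the transporter gene Stard4 were the 3 with a higher mean in the second set.

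Fatty acid synthesis, which is driven mainly by the related SREBP1, did not follow. Of 12 genes 0 were separated, and the median difference was 0.05. Fasn was at 82.5 to 92.7 FPKM in the first set and 51.7 to 86.6 in the second, and the highest values of Scd1, Scd2, Fads2 and Acss2 were all in Lactobacillus 3 of the second set. Lactobacillus 3 was also the library with the second highest pancreatic transcripts. Without the pair with high Ctrb1, 5 of the 12 genes were separated with the first set higher, against 12.2% of all genes, and the median was 0.27.

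Stress programs differed in how they lay across the sets. Of 24 genes of the unfolded protein response 6 were separated with the first set higher, 0 the other way, and 23 had a higher mean in the first set, with a median of 0.27. With median-of-ratios factors 4 were separated, and without Klebsiella 3 and Lactobacillus 2 12 were (median 0.38), against 13.4% of all genes. Atf4, which encodes the transcription factor of amino acid and endoplasmic reticulum stress, was at 148, 136, 129 and 110.1 FPKM in the first set and 74.9, 83.9, 68.1 and 57.7 FPKM in the second. Its gap of 0.39 was the widest of the list. Hspa5, which encodes the main chaperone of the endoplasmic reticulum, was at 469.5, 443, 664 and 570.1 FPKM in the first set and 441, 341, 268 and 323 FPKM in the second. Here Klebsiella 3 nearly reached Klebsiella 2, and the gap was 0.0063. Ddit3, the death-related factor of the same pathway, overlapped at 22.4 to 32.8 FPKM against 24.6 to 26.4.

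Cytosolic heat shock genes separated the libraries differently. All 17 had a higher mean in the first set and the median was 0.51, but only 3 were separated. Hsph1 was at 44.3, 78.2, 78.9 and 171 FPKM in the first set and 137, 37.9, 23.6 and 36.5 FPKM in the second. Klebsiella 3 of the second set was above 3 libraries of the first. Dnajb1, which encodes a cochaperone, was at 50.3, 137, 49.3 and 121 FPKM in the first set and 40.5, 33.9, 26.98 and 22.2 FPKM in the second. It was separated with a gap of 0.28. Lactobacillus 1 had the highest level of 15 of the 17 genes, among them Hsp90aa1 at 800.4 FPKM and Hspa1b at 318 FPKM against at most 91.1 elsewhere. Hspa1a and Hspa1b are near-identical copies, so how their reads were split is uncertain. Without Klebsiella 3 and Lactobacillus 2, 14 of the 17 were separated, against 13.4% of all genes, with a median of 0.75.

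Other stress lists held genes of both directions. Cdkn1a, which encodes the cell cycle inhibitor p21, a p53 target, was at 274, 348, 319 and 311 FPKM in the first set and 158, 187, 116 and 157 FPKM in the second. It was higher in the first set with a gap of 0.55. Bbc3, which encodes the death-promoting p53 target PUMA, was at 12.5, 15.1, 8.49 and 11.99 FPKM in the first set and 24.5, 29.4, 36.1 and 32.3 FPKM in the second. This gene was higher in the second set with a gap of 0.69. Of 10 p53 targets 2 were separated in each direction, Cdkn1a and Mdm2 with the first set higher and Bbc3 and Trp53inp1 with the second, with a median of -0.09. Of 11 NRF2 targets 2 were separated with the first set higher, Osgin1 and Txnrd1, and 1, Gclm, with the second set higher. Of 16 hypoxia and glycolysis genes 2 were separated with the first set higher, Slc2a1 at 106.2 to 114 FPKM against 62.0 to 72.4 and Hk2 at 98.0 to 164.3 against 50.4 to 75.9. The hypoxia genes Car9, Pdk1 and Ndrg1 overlapped. Of 11 glucocorticoid-response genes 10 passed the filter and 2, Errfi1 and Per1, were separated with the first set higher, while Tsc22d3, Fkbp5 and Sgk1 overlapped.

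**Figure D3:**
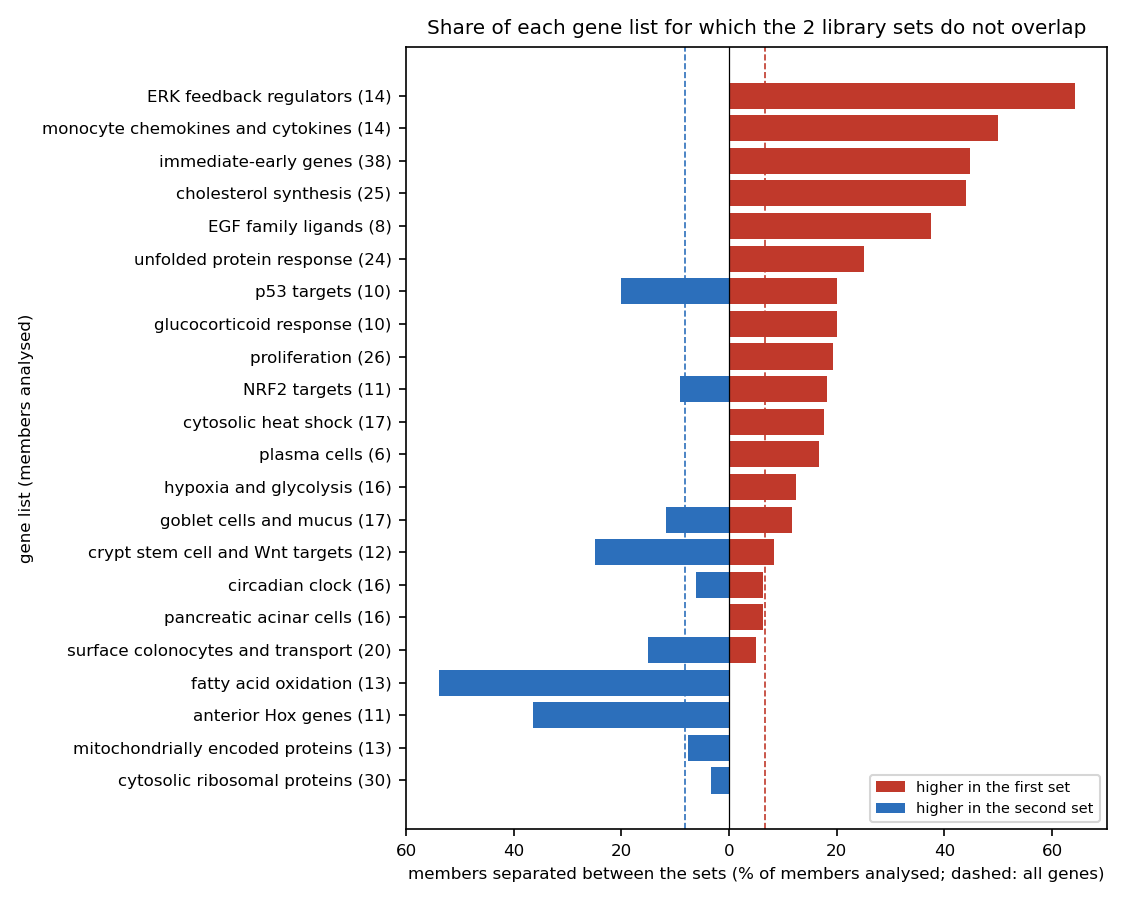
Bars give the share of analysed members of each gene list that separated the sets (red: first set higher; blue: second set higher), with the number of members analysed in parentheses and dashed lines at the 6.73% and 8.14% of all genes; lists with under 5 analysed members or with 0 separated are left out. ERK feedback regulators (9 of 14) and chemokines and cytokines (7 of 14) reach farthest to the right. Immediate-early genes (17 of 38) and cholesterol synthesis (11 of 25) come next. Chemokine, immediate-early and cholesterol genes chose the sets, and the ERK list was added after values were seen. Their lead is therefore no result apart from these choices. Fatty acid oxidation reaches farthest to the left with 7 of 13.

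Genes higher in the second set had smaller gaps. Rnf186, which encodes an epithelial ubiquitin ligase, was at 12.02, 19.8, 16.8 and 40.4 FPKM in the first set and 120, 114, 155 and 114 FPKM in the second. It had the widest gap on this side, 1.49, with Lactobacillus 1 the highest of the first set. Mycn, which encodes a transcription factor of the MYC family, was at 0.712, 0.612, 0.559 and 0.893 FPKM in the first set and 3.101, 2.19, 2.88 and 3.23 FPKM in the second. Its gap was 0.95, on 19 to 122 reads a library. The related Myc had the opposite order of means, at 23.8 to 79.9 FPKM in the first set and 17.4 to 28.2 in the second, and overlapped. Cited2, which encodes a coregulator that competes with hypoxia factors, was at 15.8, 28.7, 25.6 and 28.02 FPKM in the first set and 63.1, 49.4, 86.4 and 63.3 FPKM in the second. Its gap was 0.78. Socs2, which encodes a suppressor of growth hormone signalling, was at 16.03, 20.7, 14.6 and 17.3 FPKM in the first set and 35.4, 34.4, 33.1 and 41.3 FPKM in the second. Its gap was 0.66.

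Tifa, which encodes an adaptor of bacterial sugar sensing, was at 16.8, 21.2, 19.6 and 16.4 FPKM in the first set and 40.9, 36.4, 51.3 and 39.8 FPKM in the second. Its gap was 0.76, and its locus overlaps Ap1ar. Clec2d, a ligand of natural killer cell receptors, was at 32.8 to 66.6 FPKM in the first set and 118.4 to 149.6 in the second. The secreted protein gene Tsku was at 1.66 to 6.73 FPKM against 11.1 to 14.3. Polg2, a subunit of the mitochondrial DNA polymerase, was at 2.42 to 4.21 FPKM against 7.51 to 11.9, Trim72 at 1.67 to 2.60 against 4.68 to 6.83, Hexim2, an inhibitor of transcription elongation, at 1.85 to 2.10 against 3.68 to 5.25, Lysmd4 at 3.56 to 4.43 against 7.46 to 11.3, and Dnajc28 at 2.28 to 4.34 against 7.15 to 9.11. Polg2, Trim72, Lysmd4 and Dnajc28 each overlap another gene.

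Zinc finger genes were frequent on this side. Zkscan14 was at 1.77 to 3.24 FPKM in the first set and 5.97 to 7.49 in the second, and Zfp688 at 3.34 to 5.33 against 8.72 to 10.9. Of the 343 analysed genes with a symbol made of Zfp and a number, a family counted after values were seen, 106 (30.9%) were separated with the second set higher, against 8.14% of all genes, and 12 with the first set higher. Their median difference was -0.23 and 79% had a lower mean in the first set. Most encode nuclear proteins with repeated C2H2 zinc fingers, many of them repressors of repeat elements. The count was 92 with libraries rescaled to a constant total and 95 of 342 with median-of-ratios factors. Their typical level was low, with a median over genes of 4.58 FPKM. Members share sequence, so reads of close copies may be divided between them.

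Among lists with at least 5 analysed members, fatty acid oxidation had the largest share separated on this side. All 13 genes had a higher mean in the second set, 7 were separated, 0 the other way, and the median was -0.37. Acadm, which encodes the medium-chain dehydrogenase, was at 163, 165, 159 and 163 FPKM in the first set and 220, 213, 197 and 244 FPKM in the second. Its gap was 0.26, and the first set spanned only 159 to 164.5 FPKM. Hadhb, which encodes a subunit of the trifunctional protein, was at 83.7, 84.6, 89.99 and 77.1 FPKM in the first set and 109.9, 117, 102 and 121 FPKM in the second. Its gap was 0.18. With a constant total 5 of the 13 were separated, and without the pair with high Ctrb1 10 were, against 17.8% of all genes. Mitochondrially encoded proteins had a median of -0.29 with 1 of 13 separated, and cytosolic ribosomal proteins of -0.15 with 1 of 30.

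Proliferation genes were higher in the first set on average but overlapped for most. All 26 had a higher mean in the first set, the median was 0.64, and 5 were separated, Mcm2, Mcm3, Mcm4, Mcm5 and Plk1, with 0 the other way. Top2a, which encodes the DNA topoisomerase of dividing cells, was at 104, 78.1, 133 and 110 FPKM in the first set and 52.4, 61.4, 104 and 37.2 FPKM in the second. Lactobacillus 3 of the second set was at the level of Klebsiella 1 and above Klebsiella 2, and Lactobacillus 4 was the lowest library. Aurkb, which encodes a mitotic kinase, was at 35.1, 22.4, 40.6 and 37.5 FPKM in the first set and 11.9, 18.2, 33.6 and 7.66 FPKM in the second. Lactobacillus 3 was again above Klebsiella 2. Without Klebsiella 2 and Lactobacillus 3, 22 of the 26 were separated, against 12.2% of all genes, with a median of 1.02.

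Crypt stem cell and Wnt target genes went both ways. Ascl2, which encodes the transcription factor of crypt stem cells, was at 4.77, 3.92, 3.19 and 3.92 FPKM in the first set and 5.27, 5.85, 7.001 and 8.72 FPKM in the second. It was separated with the second set higher, with a gap of 0.13. Cdca7 was at 37.6, 41.1, 32.4 and 31.2 FPKM in the first set and 55.5, 53.1, 47.7 and 54.6 FPKM in the second. This Wnt and MYC target was also higher in the second set, with a gap of 0.21. Of 13 genes 12 passed the filter, 3 were separated with the second set higher (the third was Axin2), 1 with the first set higher (Sox9), and the median was 0.09, or -0.02 without Klebsiella 3 and Lactobacillus 2. Without these libraries 5 of the 12 were separated with the second set higher, against 16% of all genes, and 1 with the first set higher. Lgr5, the classical stem cell marker, overlapped at 3.02 to 5.71 FPKM in the first set and 4.64 to 8.65 in the second.

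Secretory and surface cell genes gave few separated members. Atoh1, which encodes the transcription factor that starts secretory cells, was at 8.24, 13.01, 21.1 and 26.4 FPKM in the first set and 54.6, 32.9, 39.7 and 31.1 FPKM in the second. It was higher in the second set with a gap of 0.23, while the mucin Muc2 overlapped at 2381 to 4139 FPKM against 1159 to 4305. Ang4, which encodes an antimicrobial ribonuclease of goblet and Paneth cells, was at 1550, 394, 1935 and 1732 FPKM in the first set and 515, 78.99, 412 and 259 FPKM in the second. Klebsiella 2 was below Klebsiella 3 and Lactobacillus 3, so the sets overlapped in spite of a difference of 2.22. Of 17 goblet cell genes 2 were separated in each direction, and of 20 surface colonocyte genes 1 with the first set higher, Vil1, and 3 with the second set higher, Scnn1b, Slc5a8 and Slc16a1. Of 13 tuft cell genes and 12 enteroendocrine genes 0 were separated, with medians of 0.19 and -0.20. Without Klebsiella 3 and Lactobacillus 2, 6 goblet cell genes were separated with the first set higher and 3 the other way, and 4 tuft cell genes with the first set higher, against 13.4% and 16% of all genes. Without Klebsiella 2 and Lactobacillus 3, 6 surface colonocyte genes were separated with the second set higher, against 17.8%, and their median moved to -0.60 from -0.20. Without the same libraries, 3 of the 12 enteroendocrine genes were separated with the second set higher. Without Klebsiella 3 and Lactobacillus 2, 3 of the 12 were separated with the first set higher, against 13.4% of all genes. Slc9a3, a sodium and proton exchanger of absorptive cells, was at 49.3 FPKM in Klebsiella 2 and 1.78 in Klebsiella 1, both of the first set.

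**Figure D4:**
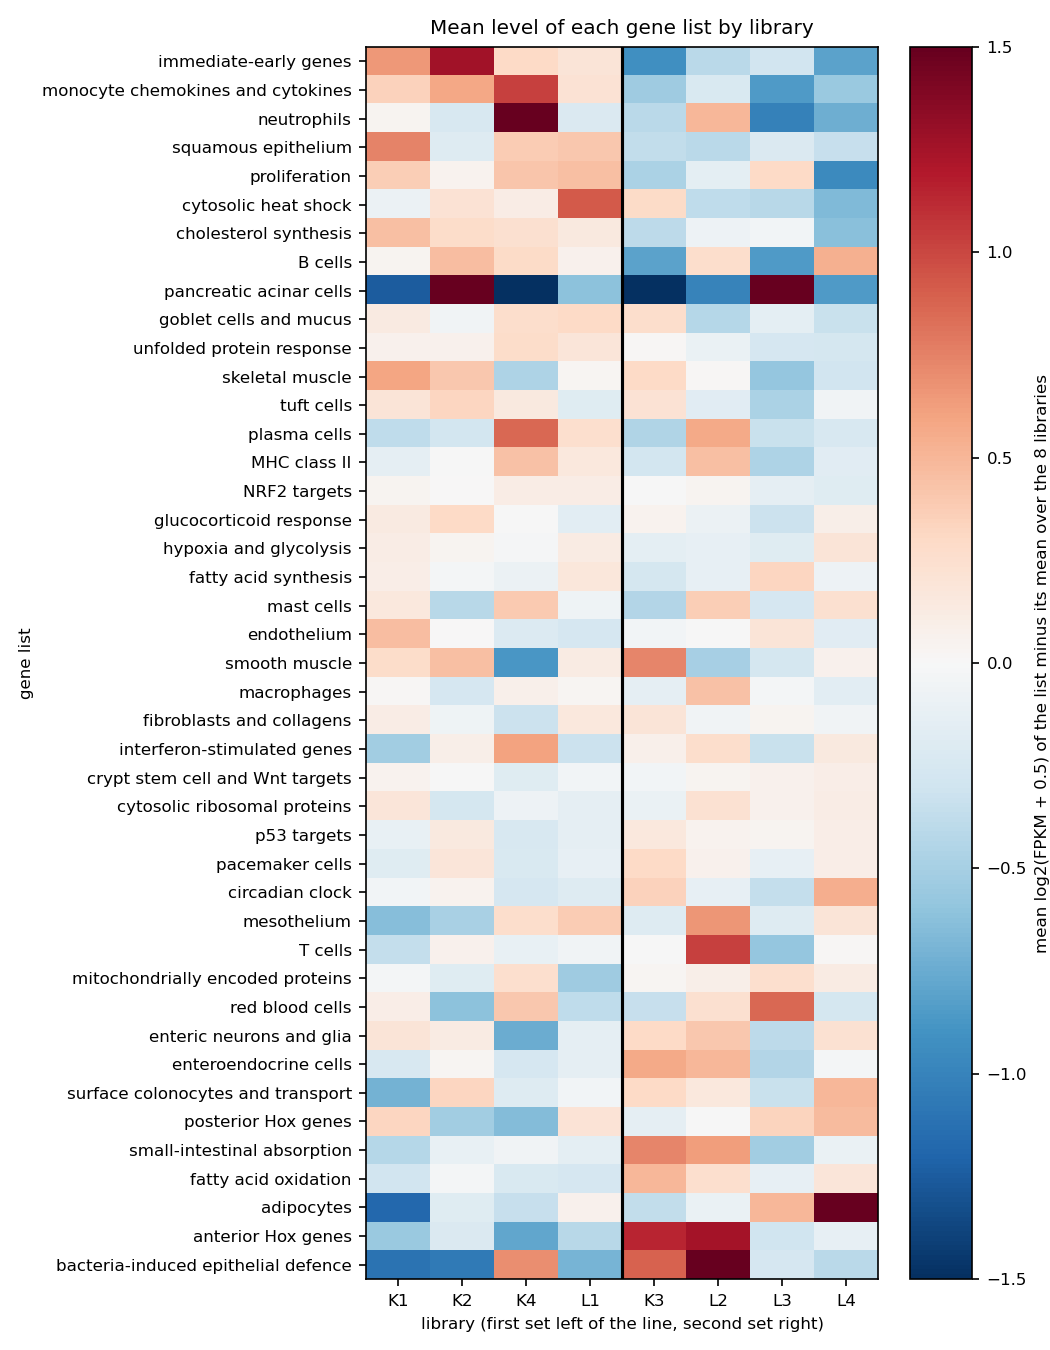
Colours give the mean log2(FPKM + 0.5) of each gene list in each library minus its mean over the 8 libraries, with the first set left of the black line and the lists ordered by the difference of the set means. Immediate-early, chemokine and cholesterol rows change colour at the line, whereas pancreatic genes are high in Klebsiella 2 and Lactobacillus 3 and anterior Hox genes in Klebsiella 3 and Lactobacillus 2, 1 pair of libraries across the line and 1 within the second set.

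Some regional genes marked single libraries, and others separated the sets. Anterior Hox genes give position along the gut, and all 11 that passed the filter had a higher mean in the second set. Hoxb8 was at 1.11, 1.72, 0.623 and 0.633 FPKM in the first set and 15.9, 21.04, 0.813 and 0.617 FPKM in the second. The high values were those of Klebsiella 3 and Lactobacillus 2, and Lactobacillus 3 and 4 were at levels like those of the first set. Hoxa6 was at 8.99, 16.9, 8.83 and 13.4 FPKM in the first set and 18.03, 20.3, 20.4 and 22.3 FPKM in the second. This gene of another Hox cluster was separated with a gap of 0.09. In all, 4 of the 11 were separated with the second set higher, Hoxa4, Hoxa6, Hoxa7 and Hoxb4, against 8.14% of all genes. The median was -0.78. Without Klebsiella 2 and Lactobacillus 3, 6 of the 11 were separated with the second set higher, against 17.8% of all genes, and the median was -1.04. Without Klebsiella 3 and Lactobacillus 2 the median was -0.26, with 5 separated against 16% of all genes, and Hoxb6 had a difference of 0.22 in place of -1.79. Of 14 posterior Hox genes 12 passed the filter and 0 were separated, with a median of -0.38, while without the same pair 4 were separated with the second set higher, against 16% of all genes, and the median was -0.66. Hoxd13, which encodes a homeobox protein of the distal end, was at 46.3, 3.25, 8.03 and 43.9 FPKM in the first set and 2.198, 19.1, 27.3 and 39.2 FPKM in the second. High and low libraries occurred in both sets, and the difference was 0.05.

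Other regional transcripts followed the same pair. Car1, which encodes a carbonic anhydrase of the colon surface, was at 295, 588, 195 and 418 FPKM in the first set and 2342, 2947, 414 and 836 FPKM in the second. Without the pair its difference was -0.77 in place of -1.85. Slc10a2, which encodes the ileal bile acid transporter, was at 0.198, 0.301, 1.15 and 0.0902 FPKM in the first set and 6.09, 6.002, 0.156 and 0.508 FPKM in the second. Nts, a hormone gene of the distal small intestine, was at 12.8 and 14.5 FPKM in the pair and at most 0.637 elsewhere. Reg3b, which encodes a lectin that kills bacteria, was at 0.214, 0.176, 13.8 and 0.211 FPKM in the first set and 591, 1469, 12.9 and 0.386 FPKM in the second. This was the largest difference of all genes analysed, -5.25, yet the sets overlapped, since Klebsiella 4 was above Lactobacillus 3 and Lactobacillus 4. The related Reg3g was at 65.2 and 152.2 FPKM in the pair and at most 2.82 elsewhere, and 0 of 9 defence genes were separated. Reg3b and Reg3g are similar in sequence, so their reads may be divided between them.

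**Figure D5:**
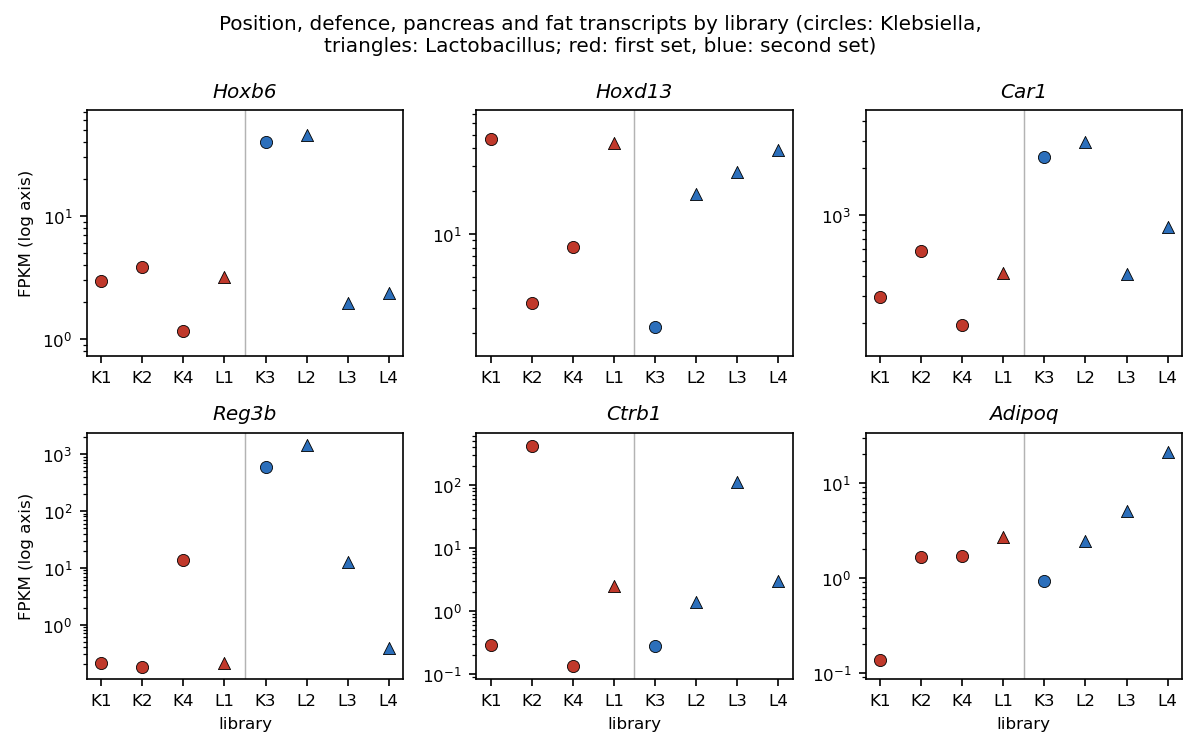
FPKM (log axis) of 6 transcripts of gut position, defence, pancreas and fat in each library, with the first set (red) left of the grey line, the second (blue) right of it, circles for Klebsiella and triangles for Lactobacillus recipients. Hoxb6, Car1 and Reg3b are highest in Klebsiella 3 and Lactobacillus 2, Ctrb1 in Klebsiella 2 and Lactobacillus 3, Adipoq in Lactobacillus 4, and in no panel do the sets lie apart.

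Transcripts of neighbouring tissues also lay in single libraries. Of 18 pancreatic acinar genes 16 passed the filter and 1, Clps, was separated. Prss2, a trypsinogen, reached 123.7 FPKM in Klebsiella 2 and 42.4 FPKM in Lactobacillus 3, against at most 0.919 elsewhere. Adipoq, which encodes the fat cell hormone adiponectin, was at 0.138, 1.65, 1.698 and 2.73 FPKM in the first set and 0.937, 2.43, 5.104 and 21.04 FPKM in the second. Lactobacillus 4 was the highest and Klebsiella 1 the lowest. Of 15 adipocyte genes 13 passed the filter and 0 were separated, with a median of -0.54, and without Klebsiella 3 and Lactobacillus 2 8 were separated with the second set higher, against 16% of all genes, and a median of -1.03. The summed level of the list was 72.7 to 118 FPKM in the first set and 106 to 366 in the second.

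Genes of the gut wall gave no separated members when all 8 libraries were used. Of 17 smooth muscle genes 0 were separated and the median was -0.02, or 0.02 with median-of-ratios factors. Actg2, the enteric actin, was at 220 to 781 FPKM in the first set and 346.9 to 1095 in the second, with Klebsiella 4 the lowest and Klebsiella 3 the highest. All 15 analysed genes of enteric neurons and glia had a higher mean in the second set, with 0 separated and a median of -0.29. Without Klebsiella 2 and Lactobacillus 3, 8 of them were separated with the second set higher, against 17.8% of all genes. Fibroblast, endothelial, mesothelial and pacemaker lists had 0 separated, as did interferon-stimulated genes, MHC class II, T cells and B cells. Without Klebsiella 3 and Lactobacillus 2, 5 of the 7 MHC class II genes were separated with the first set higher, against 13.4% of all genes, and their median was 0.46 in place of 0.27. Without Klebsiella 2 and Lactobacillus 3, 2 of the 3 pacemaker genes and 2 of the 11 T cell genes were separated with the second set higher. The share of all genes was 17.8%, and the T cell count lay near it. Of 12 squamous epithelium genes only 3 passed the filter, with 2 separated with the first set higher, Krt15 and Lor, at most at 2.39 and 3.66 FPKM. The squamous markers Krt5, Krt13, Krt4 and Trp63 were below the filter.

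Within the first set, Klebsiella 2 and Lactobacillus 1 lay nearest to the divide most often. For the 1135 genes higher in the first set, the lowest library of that set was Klebsiella 2 for 36.5% and Lactobacillus 1 for 33.4%, and the highest was Klebsiella 4 for 44%. For the 1372 genes higher in the second set, the highest library of the first set was Klebsiella 2 for 46.1%, and the top library was Lactobacillus 4 for 49.9%. The genes also differed in structure. Protein-coding genes higher in the second set had a median of 7 exon blocks and 16.8 kb of genomic span, those higher in the first set 10 and 20.5 kb, and all analysed protein-coding genes 10 and 23.8 kb. Median levels of these protein-coding genes were 23.1 FPKM for those higher in the first set, 14.4 for those higher in the second and 13.3 for all. Long noncoding and related transcripts made up 136 of the 1372 genes higher in the second set, 33 of the 1135 higher in the first and 1203 of the 16865 analysed genes.

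Of 11 library statistics, 9 came from the deposited read tables, which were not used to choose the sets. The other 2, the share of reads in mitochondrially encoded genes and the number of genes above 0, came from the FPKM values. Two-sided exact permutation tests of 4 libraries against 4 were run and adjusted over all 11. Those of the other 2 are not read, since the FPKM values also chose the sets. For the 9, the permutation tests gave p-values down to 0.0571 (adjusted p 0.314), where 0.0286 is the smallest p the design allows. Among the 9, the value of 0.0571 was that of the percent of reads mapped, at 95.04% to 95.87% in the first set and 95.82% to 96.59% in the second. The mitochondrially encoded share, given as a description, was at 3.13% to 4.54% against 4.46% to 5.27%. The percent of bases at quality 30 was lowest in Klebsiella 4, at 90.65%, and 94.03% to 94.57% in the rest. The sets and the labelled groups overlapped in part: 3 of 4 Klebsiella and 1 of 4 Lactobacillus recipients were in the first set.

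The labelled comparison shares these libraries, and its values for the same genes stand beside the sets. With limma, 0 of 16865 genes (0%) differed between Klebsiella and Lactobacillus recipients at an adjusted p under 0.05, the smallest adjusted p was 0.462, and 1024 genes had an unadjusted p under 0.05. Such an unadjusted count includes genes that pass by chance and is not read as a result. Ccl2 averaged 7.61 ± 4.68 FPKM over the Klebsiella recipients and 2.24 ± 2.36 over the others (SD, n = 4 in both groups). On the log2 scale the groups differed by 1.61 with a standard error of 0.69 (adjusted p by limma 0.774). Klebsiella 3 was the lowest of its group and Lactobacillus 1 the highest of its own. Ptgs2 averaged 9.22 ± 5.19 against 3.39 ± 1.66 FPKM, differing by 1.23 with a standard error of 0.43, and Areg 66.2 ± 45.4 against 19.9 ± 26.9, differing by 1.87 with a standard error of 1.04 (adjusted p by limma 0.774 for both). Rnf186 averaged 42.2 ± 52 against 106 ± 47.7 FPKM, with a difference of -1.82 and a standard error of 0.70 (adjusted p by limma 0.774). Each library came from a single mouse per the labels, so p-values measure the spread between mice along with that of handling and library making.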

How the data were processed

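RNA-seq values of intestine from 8 mice were used as deposited. The authors deposited 1 table of FPKM values for 49585 gene identifiers, and tables of read statistics with counts of reads and percent values per library. A deposited table of 15 genes that the authors chose, also in FPKM, was not used for results. STAR 2.5.1b, DESeq2 1.10.1, HTSeq 0.6.0 and CASAVA are named, per the submitters' processing notes, with no role. Genome build and annotation were not given in the sources used here. Total RNA was made into libraries with a TruSeq kit, per the labels' protocols. Symbols were found for 49326 identifiers and 259 had none.

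The FPKM values are whole multiples of the value of 1 read (within 0.01) for all 26963 genes tested, which gave the recovered reads up to a common factor; they cover counting error only. FPKM was taken as log2(FPKM + 0.5), with a mean of at least 0.5 FPKM required. The libraries, gene lists and landmark genes were chosen with earlier results of these data known. Lists of EGF ligands, EGF receptors and ERK feedback regulators and the count of Zfp genes were added after values were seen. The contrast of the sets has no test. Recipient groups were compared with limma 3.58.1 (R 4.3.3) over all genes with Benjamini-Hochberg adjustment, and read statistics with exact permutation tests (scipy 1.17.1 with pandas 2.3.3, numpy 2.4.6 and matplotlib 3.10.9 under Python 3.11.15). The scripts were tested on simulated data.

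Genes were named by rule: the 15 protein-coding genes with the widest gap in each direction, Ccl2, Ptgs2, up to 4 members of each list with the largest difference, Hoxb6, Hoxd13, Car1 and Ctrb1, and the 5 genes most like Ccl2 and Ptgs2. Other members of the lists were named after their values were seen, and a few members are not reported here. Alternatives were pseudocounts of 0.1 and 1, no filter and a filter at 1 FPKM, rescaling to a constant total, median-of-ratios factors, each library left out, and the pairs with high Hoxb6 or Ctrb1 left out. The labels do not state that the mouse numbers pair the samples. Deviations from the group means correlated at 0.189, -0.10, -0.06 and -0.159 between same-numbered mice. This check cannot show that the samples are unpaired.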

Additional observations from a re-analysis of the deposited data

Results flagged for a closer look

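Within each recipient group of 4, a library was singled out where its distance to the nearest other library took up nearly the whole range of the group, past the critical value of Dixon's test. Of 158 groups of values tested 21 met this, and chance gives about 1 in 20 groups. Of these, 13 concern genes named for their gaps and 3 concern Hoxb6 or Ctrb1, also chosen with their values known, so the number is not to be read against that rate. Values are log2(FPKM + 0.5).

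Lactobacillus 1 stood apart from the other Lactobacillus recipients for 7 genes. It was at 5.92 for Areg (others 2.57 to 3.13), 3.40 for Fosl1 (0.54 to 0.83), 1.70 for Foxn1 (-0.38 to -0.12), 5.71 for Phlda1 (3.59 to 3.92) and 3.11 for Spry4 (1.40 to 1.47). It was below the others at 1.90 for Zkscan14 (2.91 to 3.00) and 2.12 for Tsku (3.54 to 3.75). These genes were named for their gaps between the sets, so this position of Lactobacillus 1 follows from the choice.

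Klebsiella 3 stood apart from the other Klebsiella recipients for 6 genes of the same origin. It was lower at 3.44 for Epha2 (6.49 to 6.74), 5.47 for Gprc5a (8.13 to 8.20), 1.39 for Spry4 (3.56 to 3.68) and 4.99 for Thbs1 (7.09 to 7.21). It was higher at 1.85 for Mycn (0.08 to 0.28) and 3.56 for Lysmd4 (2.02 to 2.26).

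Landmark genes and list means singled out other libraries. Hoxb6 was at 5.51 in Lactobacillus 2 (1.31 to 1.89 in the other Lactobacillus recipients). Ctrb1 was at 8.71 in Klebsiella 2 (-0.66 to -0.34) and at 6.82 in Lactobacillus 3 (0.91 to 1.80). The mean of pancreatic acinar genes was 6.89 in Klebsiella 2 (1.03 to 1.45) and 5.46 in Lactobacillus 3 (1.69 to 2.09). Epithelial defence genes had a mean of 5.11 in Lactobacillus 2 (2.47 to 2.91). In Klebsiella 4 the mean of enteric neuron and glia genes was 1.89 (2.76 to 2.94) and that of plasma cell genes 6.61 (5.29 to 5.47).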

How the results depend on the processing

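Of the 16 alternatives only the rescalings could undo a separation, and all 30 genes with the widest gaps stayed separated under them. Other pseudocounts, other filters or fewer libraries leave a separated gene separated by construction. Without Klebsiella 3 and Lactobacillus 2 (the pair with high Hoxb6), 4958 genes were separated, 2260 higher in the first set and 2698 in the second. Without Klebsiella 2 and Lactobacillus 3 (the pair with high Ctrb1) these were 5062, 2064 and 2998. Leaving out 1 library at a time gave 2854 to 3699 separated genes, 1263 to 1566 higher in the first set and 1591 to 2160 higher in the second, the last without Klebsiella 2. Fewer libraries separate more genes by construction. With no filter on low values the chemokine median was 0.50 in place of 1.08, since genes near 0 entered the list. Over all alternatives the medians lay between 0.394 and 0.641 for cholesterol synthesis, 0.737 and 1.13 for immediate-early genes and 0.496 and 1.26 for chemokines. Of 735 values of list medians under alternatives 718 moved by less than the spread used, as did 3248 of 3270 differences of single genes. With the mouse number as a replicate block, limma called 0 genes between recipients (1027 at an unadjusted p under 0.05). It also called 0 under each other alternative that was fitted. The recipient comparison was not fitted without the pairs with high Hoxb6 or Ctrb1. Leaving out 1 library, 566 to 2004 genes had an unadjusted p under 0.05, the highest numbers being 2004 without Lactobacillus 1 and 1825 without Klebsiella 3. These unadjusted counts also include genes that pass by chance. Low levels limit Ccl2, at 11 to 185 recovered reads, and Foxn1, at 15 to 277.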

Other observations

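Genes of the circadian clock marked a pair of libraries on both sides of the recipient groups but within the second set. Levels of Dbp, a clock output factor, reached 11.8 FPKM in Klebsiella 3 and 7.64 FPKM in Lactobacillus 4 and were 1.398 to 3.22 FPKM elsewhere. Tef, a related factor, reached 42.1 and 52.4 FPKM there, against 12.4 to 22.6 FPKM. The clock repressor Nr1d1 was at 34.3 and 30.7 FPKM against 5.78 to 20.99. Of 16 clock genes 1 was separated in each direction, Per1 with the first set higher and Bhlhe41 with the second, and the median difference was -0.17. The sources used here do not give the times of collection.

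Lymphocyte genes marked a single library. Of the 11 T cell genes that passed the filter, Lactobacillus 2 had the highest level of all 11, with the protease Gzma at 15.1 FPKM against 0.361 to 3.63 in the rest. Interferon-stimulated genes were highest in Klebsiella 4 for 9 of 14, with Isg15 at 15.02 FPKM against 2.43 to 8.89, and their median difference between the sets was -0.10.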
